A study of Mus musculus with 6 samples.

Results

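The subunits of the oxidative phosphorylation machinery were taken from the RNA sequencing of Tyr-H and Tyr-L cells by gene name: the protein-coding genes of the mitochondrial genome (mt-Nd, mt-Co, mt-Cytb and mt-Atp) and the nuclear genes named Nduf with a subunit letter and number, Sdha to Sdhd, Uqcr, Cyc1, Cox4 to Cox8 and Atp5, leaving out pseudogenes. This gave 93 genes out of 20788 with a value in any library. Of these, 13 lie on the mitochondrial genome and 80 in the nucleus. By name, 44 belonged to complex I, 4 to complex II, 10 to complex III, 16 to complex IV and 19 to complex V. The name rule also takes in Cox7a2l, a factor of respiratory supercomplexes, and Atp5s and Atp5sl, which are not classical subunits of the ATP synthase. Without these 3, 40 of the remaining 76 tested nuclear genes were higher in Tyr-H and 9 lower, beside 17.9% and 39.9% of all tested genes. Their median log2 fold change was 0.17.

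Both cell populations are subclones of B16, a melanoma line from the C57BL/6 mouse. They are labelled Tyr-L (low tyrosinase activity) and Tyr-H (high tyrosinase activity) and were sequenced in 3 libraries each. The populations were selected as monoclonal lines from sparsely plated cells, so a difference between them is a difference between selected clones. Both were grown in low-glucose DMEM with serum and antibiotics, and the labels name no engineered allele and no treatment in either group. Whether a group's 3 libraries stem from separate cultures is not stated in the sources used here. The p-values therefore measure the spread between libraries, which may be technical. Values are FPKM (fragments per kilobase of transcript, scaled to the mapped fragments of each library), a level per length that can be compared between genes, and a gene not listed in a library was taken as 0.

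Oxidative phosphorylation passes electrons from NADH through complex I, or from succinate through complex II, to ubiquinone, then through complex III and cytochrome c to complex IV, which reduces oxygen. Complexes I, III and IV pump protons across the inner mitochondrial membrane, and complex V, the ATP synthase, uses the gradient to make ATP. Complexes I, III, IV and V are built from subunits of both genomes, while every subunit of complex II is nuclear. Mitochondrial genes are transcribed as long precursors of both strands and cut into single RNAs, whereas each nuclear subunit has a promoter of its own.

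The genes mt-Co1, mt-Nd1 and mt-Cytb were among the highest values of every library. The highest mean of all tested genes was that of mt-Co1 (15028 FPKM over the 6 libraries). These levels are no test of the name rule, which picked the 3 genes. Tyr, the tyrosinase gene behind the group names, was at 10.7, 9.52 and 9.80 FPKM in Tyr-L 1 to 3 and at 23.8, 20.6 and 19.7 FPKM in Tyr-H 1 to 3. Melanocyte genes were present in all libraries. Of the 7 tested, Tyr was higher in Tyr-H and the 6 others were lower, Tyrp1 by the least (log2 fold change -0.23). Mitf, the lineage regulator, was 90.5 ± 6.64 FPKM in Tyr-L and 25.0 ± 1.56 in Tyr-H (mean ± SD, n = 3). Of the markers of leukocytes and endothelium, Ptprc, Adgre1, Cd3e, Ly6g, Cdh5 and Kdr were listed in no library, Lyz2, Pecam1 and the keratinocyte and fibroblast markers had means of at most 0.599 FPKM in either group, and Cd68 stood at 3.62 ± 0.481 and 4.24 ± 0.227 FPKM.

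Over all genes Tyr-H values lay lower. Expression was compared with limma on log2(FPKM + 0.1), and a gene passed at an adjusted p of at most 0.05. Of 14336 tested genes 17.9% were higher in Tyr-H, 39.9% were lower, and the median log2 fold change was -0.15. This balance depended on the scaling. Of all calls 31.0% were higher with FPKM as deposited, 50.8% after median ratio scaling (median log2 fold change -0.01), 48.3% after quantile normalization (-0.01), 21.5% after rescaling to equal totals (-0.25) and 53.1% after a correction for transcript length and GC content (0.01). Libraries of the same group differed by a median absolute log2 difference of 0.0953 to 0.114 per gene, and libraries of different groups by 0.315 to 0.371.

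The subunits moved the other way. Among the 92 tested, 53 passed the test as higher in Tyr-H and 9 as lower, beside 17.9% and 39.9% of all tested genes. The median log2 fold change was 0.21 beside -0.15 over all tested genes. The increases were small. At least 2-fold higher were mt-Co1, a catalytic subunit of complex IV, and Cox6a2, the heart and muscle isoform of another complex IV subunit, 2 of 92 beside 2.96% of all tested genes. Cox6a2 averaged 0.0228 FPKM in Tyr-L and 0.965 in Tyr-H. It reached the mean of 0.1 FPKM needed for testing only through Tyr-H. No subunit was at least 2-fold lower, beside 5.78% of all tested genes. In 54 subunits every Tyr-H library lay above every Tyr-L library (20.2% of all tested genes), and in 9 every Tyr-H library lay below (43.8% of all tested genes). The exact permutation test of 3 against 3 libraries cannot go below p = 0.1, and it gave that value wherever the groups did not overlap.

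**Figure D1:**
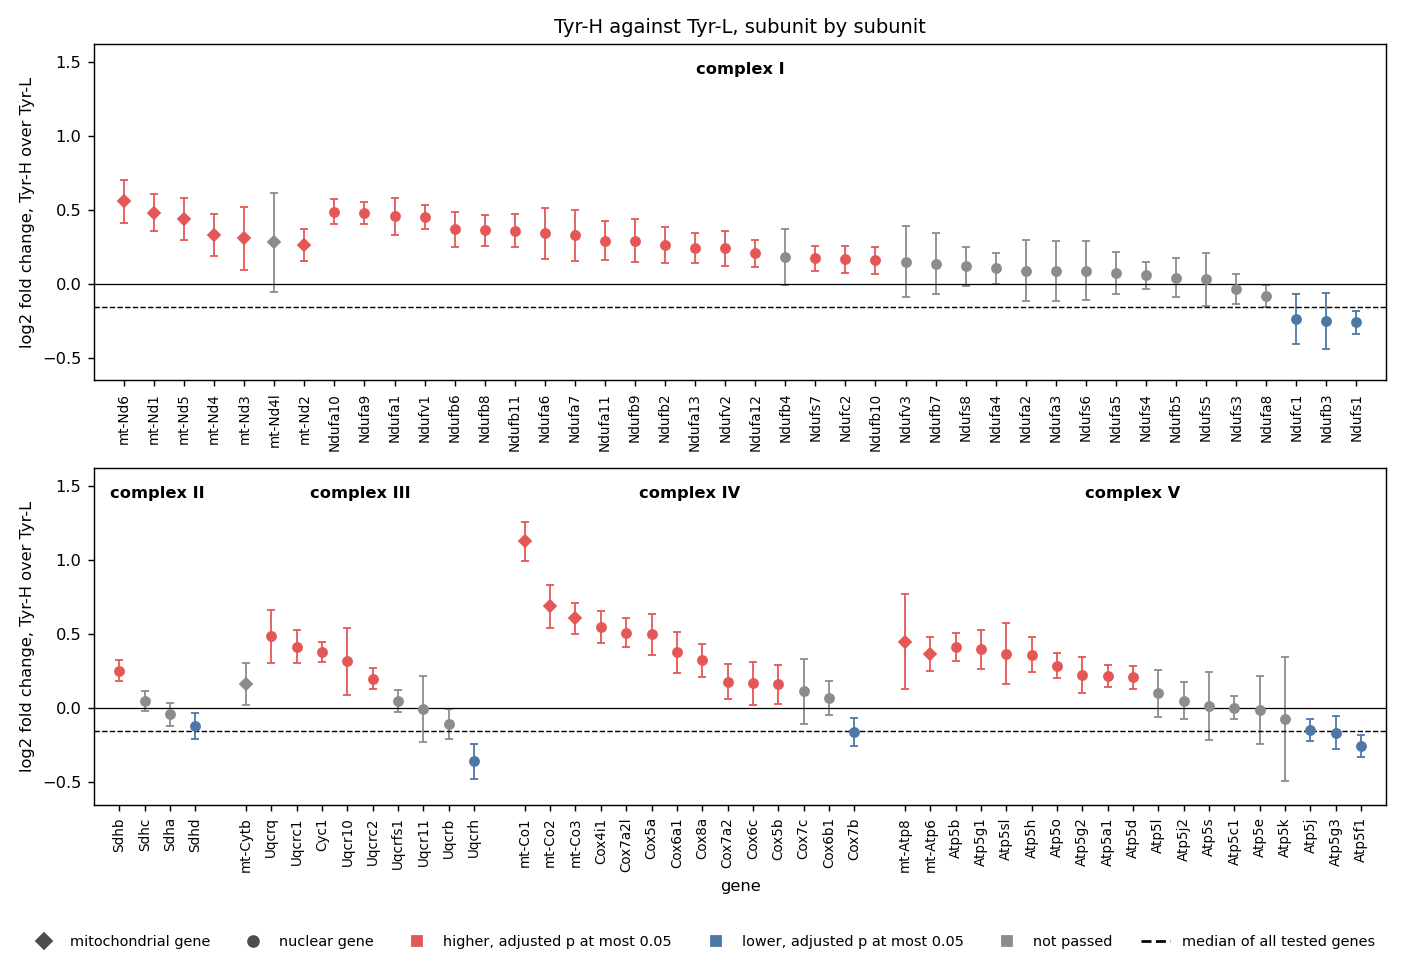
Log2 fold change of Tyr-H over Tyr-L on log2(FPKM + 0.1) for 89 subunits by complex, mitochondrial genes (diamonds) before nuclear genes (circles), with the 95% interval of the limma fit. Red and blue points passed the test as higher and lower, the dashed line is the median of all tested genes (-0.15). Cox6a2 (3.16) and Cox7a1 (1.13, not passed) are left out because both were near 0 FPKM, and 1 further subunit is not drawn. Most points lie above 0, with the 3 mitochondrial genes of complex IV at the top.

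Of the 13 mitochondrial subunit genes, 11 rose in Tyr-H and none fell, beside 17.9% and 39.9% of all tested genes. Their median log2 fold change was 0.44. The genes of complex IV, which forms the oxygen-reducing centre, changed most. The FPKM of mt-Co1 was 9342, 9363 and 9605 in Tyr-L 1 to 3 and 20198, 20258 and 21401 in Tyr-H 1 to 3. The lowest Tyr-H library thus stood far above the highest Tyr-L library, and the log2 fold change was 1.13 (SE 0.06, adjusted p = 8.25e-07). The gene mt-Co2, which carries the copper centre that accepts electrons from cytochrome c, was 5103, 4552 and 4929 FPKM in Tyr-L and 7432, 7732 and 8351 in Tyr-H, a log2 fold change of 0.69 (SE 0.06, adjusted p = 2.09e-05). The third core subunit, mt-Co3, was 3676, 3569 and 3671 FPKM in Tyr-L and 5407, 5503 and 5736 in Tyr-H, a log2 fold change of 0.61 (SE 0.05, adjusted p = 6.4e-06). Neither gene's groups overlapped.

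The mitochondrial subunits of complex I build its membrane arm, where protons are pumped. The gene mt-Nd1 was 5309, 5000 and 5277 FPKM in Tyr-L and 6956, 7200 and 7617 in Tyr-H, a log2 fold change of 0.48 (SE 0.06, adjusted p = 6.76e-05). The gene mt-Nd6, which lies on the opposite strand to the other subunit genes, was 1127, 966.7 and 1042 FPKM in Tyr-L and 1455, 1513 and 1647 FPKM in Tyr-H. At 0.56 this was the largest of the complex I increases (SE 0.06, adjusted p = 6.9e-05). The groups of both genes were apart. Log2 fold changes of 0.44 for mt-Nd5, 0.33 for mt-Nd4, 0.31 for mt-Nd3 and 0.26 for mt-Nd2 also passed, while mt-Nd4l did not (0.28, SE 0.15, adjusted p = 0.131) and its groups overlapped. The call of mt-Nd3 was lost without Tyr-L 2 (adjusted p = 0.0513) and without Tyr-L 3 (0.0704), and mt-Nd4l passed without Tyr-L 1 (0.0454). The end of mt-Nd6 overlaps mt-Nd5 on the other strand. Without strand, reads of opposite-strand RNA cannot be told apart from those of mt-Nd6, in this overlap or elsewhere in the gene. The use of strand is not given in the sources used here, so the level and change of mt-Nd6 are uncertain. The genes mt-Nd4l and mt-Nd4 overlap on the same strand, where strand does not separate their reads.

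Cytochrome b, the only mitochondrial subunit of complex III and the site where ubiquinol is oxidised, differed least. The FPKM of mt-Cytb was 4745, 4201 and 4572 in Tyr-L and 4782, 4997 and 5378 in Tyr-H. Although the groups did not overlap, Tyr-H 1 exceeded Tyr-L 1 by little, and the log2 fold change of 0.17 (SE 0.06) did not pass the test (adjusted p = 0.0504), a call that turned on small choices. It passed without Tyr-H 1 (0.20, adjusted p = 0.0267), with a pseudocount of 0.01 FPKM (adjusted p = 0.0441), with a minimum mean of 1 FPKM (0.0393), with equal totals without the mitochondrial genome (0.0474), under median ratio scaling (0.32) and under the length and GC correction (0.50). For complex V, mt-Atp6, part of the proton channel, was 3774, 3660 and 3889 FPKM in Tyr-L and 4660, 4836 and 5111 in Tyr-H, a log2 fold change of 0.37 (SE 0.05, adjusted p = 0.000257). The short mt-Atp8 was 645.9, 563.2 and 487.3 FPKM in Tyr-L and 624.9, 766.8 and 945.4 in Tyr-H; it passed at 0.45 (SE 0.14, adjusted p = 0.0216) although its groups overlapped, and the call was lost without Tyr-L 2, Tyr-L 3, Tyr-H 2 or Tyr-H 3 (adjusted p of 0.0536 to 0.0809). It also overlaps mt-Atp6 on the same strand.

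The ribosomal RNAs of the mitochondrion, read beside the subunits, were higher in Tyr-H too. The small rRNA, mt-Rnr1, was 398, 311 and 292 FPKM in Tyr-L and 900, 783 and 895 in Tyr-H, a log2 fold change of 1.37 (SE 0.10, adjusted p = 6.17e-06). The large rRNA, mt-Rnr2, rose by 0.53 (SE 0.06, adjusted p = 5.42e-05). The changes did not rise or fall steadily along the genome. The largest were those of mt-Rnr1 and mt-Co1, and mt-Nd2, which lies between mt-Nd1 and mt-Co1, had the smallest change but for mt-Cytb. The libraries were made with an mRNA kit, and how completely rRNA was removed is not known for each library.

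**Figure D2:**
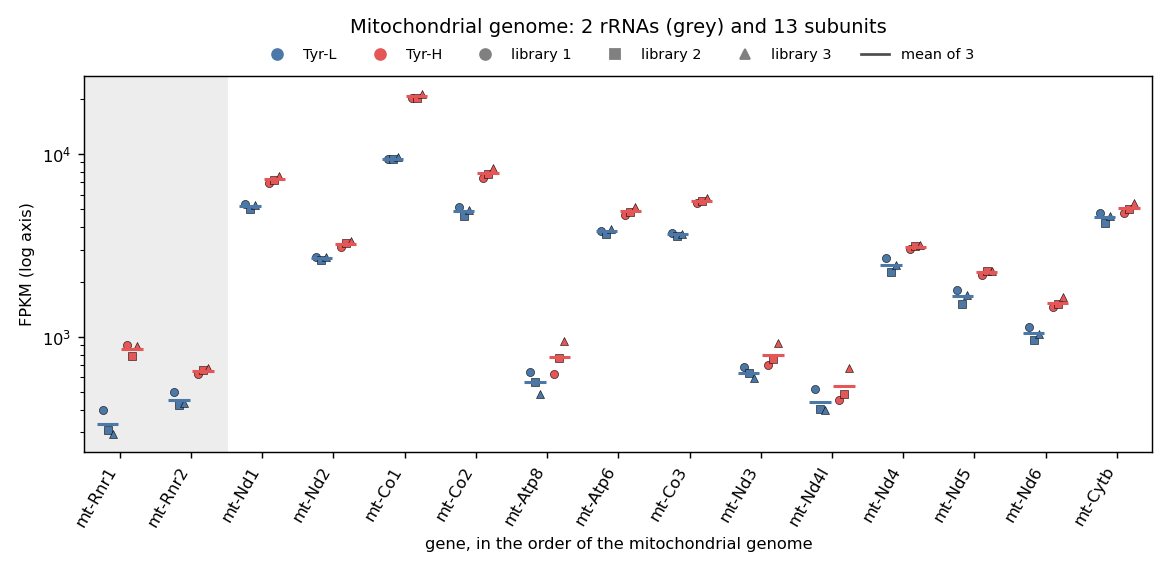
FPKM (log axis) of the 2 rRNAs and the 13 subunit genes in the order of the mitochondrial genome, 3 Tyr-L libraries (blue) and 3 Tyr-H libraries (red) per gene, with the symbol giving the library number and the line the mean of 3. The largest gap between the groups among the subunits is that of mt-Co1 (9437 against 20619 FPKM), and the groups overlap for mt-Atp8 and mt-Nd4l.

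Within the mitochondrial genes the composition shifted toward mt-Co1. Its share of the summed FPKM of the 13 subunits was 22.2%, 23.8% and 23.2% in Tyr-L 1 to 3 and 33.1%, 32.3% and 32.1% in Tyr-H 1 to 3. The share of mt-Cytb was 11.0% ± 0.288 in Tyr-L and 7.96% ± 0.113 in Tyr-H, and that of mt-Nd1 12.7% ± 0.083 and 11.4% ± 0.030 (mean ± SD, n = 3). These shares do not depend on how whole libraries were scaled by a factor, and none of the 3 overlapped between the groups. The ratio of mt-Co1 to mt-Cytb was 2.10 ± 0.130 for Tyr-L libraries and 4.09 ± 0.125 for Tyr-H libraries.

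The sum of all 13 was 42154, 39310 and 41382 FPKM in Tyr-L and 60939, 62748 and 66621 FPKM in Tyr-H, or 9.07% ± 0.299 and 13.2% ± 0.298 of the total FPKM of a library. The nuclear subunits together took 2.63% ± 0.060 and 2.82% ± 0.065. Mitochondrial over nuclear summed FPKM was therefore 3.50, 3.25 and 3.61 in Tyr-L 1 to 3 and 4.61, 4.73 and 4.65 in Tyr-H 1 to 3. On the log2 scale the ratio was 0.44 higher in Tyr-H. This is given as a description with no test. It fell to 0.25 without mt-Co1 and to 0.24 when medians of log2 FPKM replaced the sums. Numbers of mitochondria and RNA per mitochondrion cannot be told apart in these libraries.

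**Figure D3:**
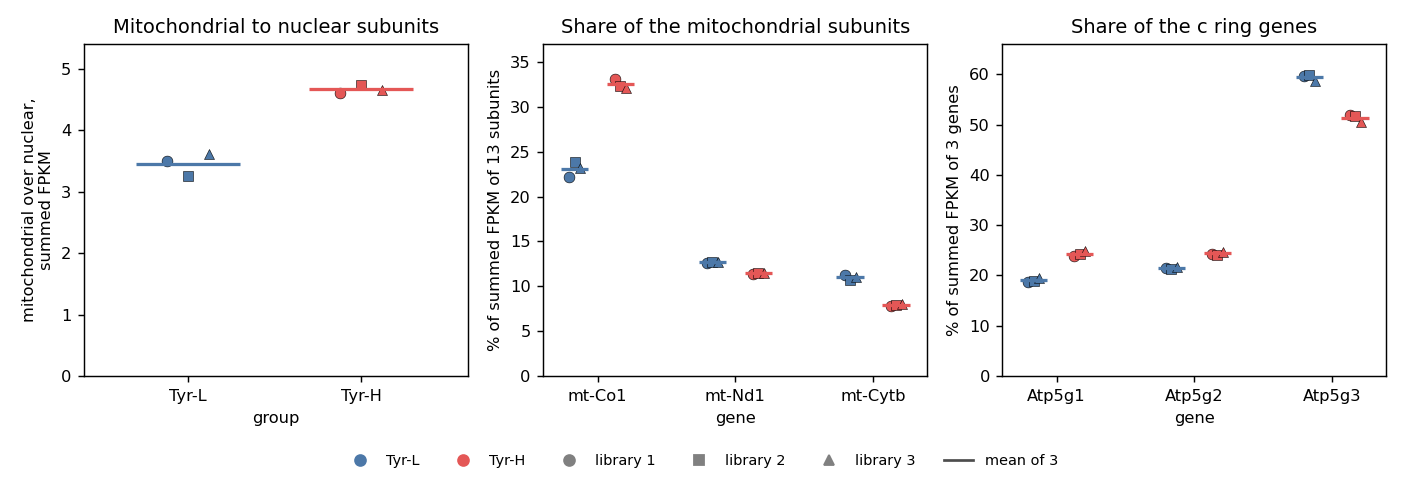
Left, mitochondrial over nuclear summed FPKM of the subunits in each library (3.25 to 3.61 in Tyr-L, 4.61 to 4.73 in Tyr-H). Middle, share of mt-Co1, mt-Nd1 and mt-Cytb in the summed FPKM of the 13 mitochondrial subunits. Right, share of Atp5g1, Atp5g2 and Atp5g3 in the summed FPKM of the 3 c ring genes. Points are libraries, lines means of 3, axes start at 0, and no pair of groups overlaps.

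The mitochondrial changes depended on the scaling. Quantile normalization left 4 of the 13 genes higher and 2 lower, with a median log2 fold change of 0.09. It gave mt-Co1, the top gene of every library, a change of 0 by construction, and it placed mt-Cytb at -0.20, mt-Nd1 at -0.14 and mt-Nd2 and mt-Nd4 at -0.03. The calls of mt-Co2 (0.15), mt-Nd5 (0.09) and mt-Atp6 (0.01) were lost there. Under median ratio scaling, and under the correction for transcript length and GC content, all 13 passed as higher.

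The values of at least 7 of the 13 genes carry a further limit, because the nuclear genome holds copies of the mitochondrial sequence. On chromosome 1 (GRCm38), the unprocessed pseudogenes Gm29216, Gm28661, Gm10925, Gm28437, Gm28438, Gm10222 and Gm28439 lie between positions 24611535 and 24616197 on the minus strand and copy the 3' part of mt-Co1, mt-Co2, mt-Atp6, mt-Co3, mt-Nd3, mt-Nd4l and part of mt-Nd4. To show how alike they are, 100 bases from the start of the shared stretch of mt-Co1 are given with the matching bases of Gm29216 and of Gm13340, a copy on chromosome 2. Capitals mark the bases at which mt-Co1 differs from either copy, and in each copy those that differ from mt-Co1. The positions are chrMT:6390-6489 (plus strand), chr1:24616089-24616188 (minus strand) and chr2:22588486-22588585 (minus strand), and the sequences are those of the GENCODE M21 transcripts.
mt-Co1: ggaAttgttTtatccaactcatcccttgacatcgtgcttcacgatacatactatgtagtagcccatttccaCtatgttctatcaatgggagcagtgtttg
Gm29216: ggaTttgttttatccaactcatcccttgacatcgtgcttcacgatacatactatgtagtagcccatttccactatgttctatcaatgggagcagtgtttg
Gm13340: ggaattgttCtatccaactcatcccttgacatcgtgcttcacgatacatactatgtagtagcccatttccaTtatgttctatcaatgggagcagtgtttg

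Over the 483 bases that Gm29216 shares with mt-Co1 (bases 1063 to 1545 of its 1545), 1 base differed. A read that falls past that base matches both places equally. Gm13340, which covers the whole of mt-Co1, differed at 37 of 1545 bases. The level of each copy was set against that of its gene. The FPKM of Gm28661 was 1.05 and 1.07 times that of mt-Co2 in Tyr-L and Tyr-H, that of Gm28437 1.06 and 1.09 times that of mt-Co3, that of Gm28438 1.08 and 1.09 times that of mt-Nd3, that of Gm28439 0.625 and 0.639 times that of mt-Nd4 and that of Gm29216 0.191 and 0.203 times that of mt-Co1. Gm13340 stood at 1.26 and 3.06 FPKM. The log2 fold changes of the copies on chromosome 1 ran from 0.32 (Gm10222) to 1.21 (Gm29216), each within 0.08 of that of its mitochondrial gene. How the authors' quantification divided such reads is not given in the sources used here, so the FPKM of these 7 genes are uncertain in level. Adding each copy to its gene gave folds of 2.21 for mt-Co1, 1.63 for mt-Co2 and 1.55 for mt-Co3, beside 2.19, 1.61 and 1.53 without it. No annotated transcript matched mt-Nd1, mt-Nd2, mt-Nd6, mt-Cytb or mt-Atp8 with at least 95% identity over 50% of their length. The copy of mt-Nd5 on chromosome 13 was listed in no library. Sequence outside annotated transcripts was not searched. The gene mt-Atp8 follows mt-Co2 and overlaps mt-Atp6, whose copies lie next to each other on chromosome 1, so it may share this limit.

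Of the 79 nuclear subunits tested, 42 rose in Tyr-H and 9 fell, beside 17.9% and 39.9% of all tested genes. The counts by complex below stand beside the same shares. The median log2 fold change was 0.17 beside -0.15 over all tested genes. Ndufa4l2, at 0 to 0.114 FPKM, averaged under 0.1 FPKM and was not tested. Levels spanned from Atp5b, the catalytic beta subunit of the ATP synthase, at a mean of 1268 FPKM down to isoforms below 1 FPKM, with a median of 120 FPKM beside 2968 FPKM for the mitochondrial subunits. The number of decreases was 5 without Tyr-L 1 and 5 without Tyr-H 2. With equal totals 36 nuclear subunits were higher and 13 lower (median 0.08), beside 1890 and 6913 of all 15719 tested genes. With median ratio scaling 62 were higher and 3 lower (median 0.33), beside 3994 and 3865 of 14306.

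Complex I had 36 tested nuclear subunits, of which 19 rose and 3 fell (median 0.17). The largest increases were in Ndufa10 and Ndufa9, accessory subunits. Ndufa10 was 58.7, 58.4 and 61.1 FPKM in Tyr-L and 85.4, 84.2 and 80.2 in Tyr-H, a log2 fold change of 0.49 (SE 0.04, adjusted p = 6.4e-06). Ndufa9 was 137.6, 141.3 and 141.7 FPKM in Tyr-L and 198.1, 189.0 and 199.5 in Tyr-H, a change of 0.48 (SE 0.03, adjusted p = 3.76e-06). The libraries of each group stood close together and the groups were apart. Ndufa4, the most abundant gene with a complex I name (447 FPKM) and now assigned to complex IV, did not pass at 0.11 (SE 0.05, adjusted p = 0.0814). It passed without Tyr-H 1 (0.13, adjusted p = 0.0464), under median ratio scaling (0.26) and under the correction for transcript length and GC content (0.42, adjusted p = 2.02e-05), and stood at -0.04 under quantile normalization.

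Among the nuclear genes of the catalytic core of complex I, Ndufs1, which carries iron-sulfur clusters of the electron-input arm, was 137.7, 131.6 and 138.6 FPKM in Tyr-L and 114.7, 115.1 and 111.0 in Tyr-H and fell by 0.26 on the log2 scale (SE 0.03, adjusted p = 0.000158). The decrease was smaller under median ratio scaling (-0.11), and its call was lost under the length and GC correction (-0.08, adjusted p = 0.0572). Ndufv1, the subunit that binds NADH in the same arm, rose from 49.5 ± 1.6 to 67.7 ± 0.931 FPKM, a log2 fold change of 0.45 (SE 0.04, adjusted p = 7.97e-06), and Ndufv2 and Ndufs7 rose too. Ndufs3 (-0.03, SE 0.04) and Ndufs8 (0.12, SE 0.06) did not pass. Of the 29 other tested subunits 15 rose, and Ndufc1 and Ndufb3 fell. Ndufc1 was 46.2, 45.2 and 43.8 FPKM in Tyr-L and 34.3, 37.5 and 43.5 in Tyr-H (-0.24, SE 0.07, adjusted p = 0.0221), with Tyr-H 3 just under the lowest Tyr-L library. Its call was lost without Tyr-L 1, Tyr-L 2, Tyr-H 1 or Tyr-H 2 (adjusted p of 0.0561 to 0.067). It was also lost under median ratio scaling (-0.08), quantile normalization (-0.14, adjusted p = 0.121) and the length and GC correction (0.00). The same held with no minimum mean (adjusted p = 0.0513) and with no variance trend (0.0834). Ndufb3 (-0.25, SE 0.08, adjusted p = 0.0294) passed although its groups overlapped. Its call was lost without Tyr-L 1, Tyr-L 2, Tyr-H 1 or Tyr-H 2 (adjusted p of 0.0623 to 0.106), and under median ratio scaling (-0.10), quantile normalization (-0.18) and the length and GC correction (-0.04). It was lost too with no minimum mean (adjusted p = 0.0682) and with no variance trend (0.103).

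Complex II, succinate dehydrogenase, is the complex with no mitochondrial gene, and its 4 subunits had a median log2 fold change of 0.01. Sdhb, the iron-sulfur subunit, was 361.4, 369.3 and 362.6 FPKM in Tyr-L and 445.4, 428.8 and 430.6 in Tyr-H and rose by 0.25 (SE 0.03, adjusted p = 0.000107), a call that was lost under quantile normalization (0.12, adjusted p = 0.0503). Sdhd, a membrane anchor, was 234.9, 231.9 and 235.1 FPKM in Tyr-L and 227.7, 209.2 and 209.9 in Tyr-H and fell by 0.12 on the log2 scale (SE 0.04, adjusted p = 0.0249). Both genes' groups were apart, but the direction of Sdhd turned to 0.03 after median ratio scaling, and its call was lost without Tyr-L 1, Tyr-L 3, Tyr-H 2 or Tyr-H 3 (adjusted p of 0.0665 to 0.0953). The call of Sdhd was also lost under quantile normalization (-0.09, adjusted p = 0.134) and with no variance trend (0.0937). The flavoprotein Sdha (-0.04, SE 0.03) and the other anchor Sdhc (0.05, SE 0.03) did not pass.

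In complex III, 5 of 9 nuclear subunits rose and Uqcrh fell (median 0.20). Cyc1, cytochrome c1 and the most abundant nuclear subunit of the complex, was 193.0, 189.0 and 193.2 FPKM in Tyr-L and 246.9, 246.6 and 254.3 in Tyr-H, a log2 fold change of 0.38 (SE 0.03, adjusted p = 7.95e-06). Uqcrq, a small subunit, rose by 0.49 (SE 0.08, adjusted p = 0.00057) and Uqcrc1, a core protein, by 0.42 (SE 0.05, adjusted p = 7.19e-05). Uqcrh, the hinge protein that binds cytochrome c1, went the other way, with 219.4, 214.4 and 190.2 FPKM in Tyr-L and 163.8, 158.4 and 164.0 in Tyr-H. It fell by 0.36 on the log2 scale (SE 0.05, adjusted p = 0.000297), the largest decrease among all subunits with FPKM as deposited, and its groups did not overlap. The decrease was smaller, and still passed, under median ratio scaling (-0.20, adjusted p = 0.00824) and under the length and GC correction (-0.19, adjusted p = 0.00341). Uqcrh overlaps Gm12854 on the opposite strand.

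Complex IV had the highest share of increases, 9 of its 13 nuclear subunits with 1 decrease (median 0.32). Cox4i1, the ubiquitous isoform of the largest nuclear subunit, was 270.0, 292.2 and 278.9 FPKM in Tyr-L and 389.1, 406.2 and 435.8 in Tyr-H, a log2 fold change of 0.55 (SE 0.05, adjusted p = 1.33e-05). Cox7a2l was 96.9, 100.2 and 93.7 FPKM in Tyr-L and 138.3, 131.2 and 144.9 in Tyr-H, a change of 0.51 (SE 0.04, adjusted p = 1.16e-05). Neither gene's groups overlapped, and Cox4i1 overlaps Emc8 on the opposite strand and the readthrough gene Gm20388. Cox7b, encoded on the X chromosome, was 241.0, 230.9 and 225.3 FPKM in Tyr-L and 208.2, 198.7 and 217.7 in Tyr-H and fell by 0.16 on the log2 scale (SE 0.04, adjusted p = 0.00959), a difference of -0.01 after median ratio scaling. Under the length and GC correction it passed as higher (0.13, adjusted p = 0.00731). With no variance trend the decrease did not pass (adjusted p = 0.0533).

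Complex IV also has isoforms that are restricted to certain tissues. Of the 8 tissue-restricted isoforms looked for, 3 were listed: Cox6a2, Cox7a1 and Ndufa4l2. Cox4i2, Cox6b2, Cox7b2, Cox8b and Cox8c were in no library. Cox6a2 was 0.068 FPKM in Tyr-L 1, not listed in Tyr-L 2 and Tyr-L 3, and 0.961, 0.855 and 1.08 FPKM in Tyr-H 1 to 3. The groups were apart, and the fitted log2 fold change of 3.16 (SE 0.29, adjusted p = 1.9e-05) depends on the pseudocount, being 5.61 with 0.01 FPKM and 0.94 with 1 FPKM. Cox6a2 was tested only because of its values in Tyr-H, so its call is a description. Its level in Tyr-H was far below that of Cox6a1, the ubiquitous isoform, at 251 ± 19.6 FPKM in Tyr-L and 327 ± 19.7 in Tyr-H. Cox6a2 lies inside Itgad, an integrin gene on the opposite strand that was not listed. Cox7a1, at 0.390, 0.114 and 0 FPKM in Tyr-L and 0.490, 0.112 and 0.788 in Tyr-H, did not pass (1.13, SE 0.65, adjusted p = 0.161), though it did without Tyr-L 1 (1.72, adjusted p = 0.0464) and without Tyr-H 2 (1.72, adjusted p = 0.0451).

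Of the 17 nuclear genes of complex V, 8 rose and 3 fell (median 0.10). The subunits of the catalytic F1 head gave 3 increases among 5. Atp5b was 1087, 1118 and 1056 FPKM in Tyr-L and 1412, 1418 and 1519 in Tyr-H, a log2 fold change of 0.41 (SE 0.04, adjusted p = 3.69e-05), and its groups were apart. Under quantile normalization the change was 0.19 (adjusted p = 0.00424). Atp5a1, the alpha subunit, rose by 0.22 and Atp5d by 0.21, while Atp5c1, the gamma subunit that turns inside the head, (0.01, SE 0.03) and Atp5e, the epsilon subunit (-0.01, SE 0.10), did not pass. Atp5f1, subunit b of the stator stalk, was 266.2, 265.6 and 253.6 FPKM in Tyr-L and 218.4, 217.3 and 223.0 in Tyr-H and fell by 0.25 on the log2 scale (SE 0.03, adjusted p = 0.00014). The difference was -0.10 under median ratio scaling and turned to 0.07 under the length and GC correction (adjusted p = 0.174). Atp5f1 overlaps Wdr77 and Gm42890 on the opposite strand. Atp5j, the coupling factor of the same stalk, also fell, by 0.15 on the log2 scale (SE 0.03, adjusted p = 0.00385), a difference that was 0.01 under median ratio scaling (adjusted p = 0.886).

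The membrane rotor of the ATP synthase is a ring of identical c subunits, for which 3 nuclear genes encode the same mature protein. They changed in different directions. Atp5g1 was 160.2, 163.6 and 157.2 FPKM in Tyr-L and 195.3, 207.1 and 233.0 in Tyr-H, a log2 fold change of 0.40 (SE 0.06, adjusted p = 0.000304) that was 0.62 under the length and GC correction. Atp5g2 was 183.9, 185.4 and 175.0 FPKM in Tyr-L and 199.2, 206.8 and 230.8 in Tyr-H, a change of 0.22 (SE 0.05, adjusted p = 0.00561). Atp5g3 was 508.7, 518.6 and 472.6 FPKM in Tyr-L and 424.0, 442.2 and 471.4 in Tyr-H and fell by 0.17 on the log2 scale (SE 0.05, adjusted p = 0.0173). The groups of all 3 were apart, those of Atp5g3 by little, and its call was lost without Tyr-L 1, Tyr-L 2, Tyr-H 1 or Tyr-H 2 (adjusted p of 0.0552 to 0.0666) and under median ratio scaling (-0.01). It was also lost with no variance trend (adjusted p = 0.0728) and under the length and GC correction (-0.07). The sum of the 3 genes overlapped between the groups (842 ± 32.8 and 870 ± 59.6 FPKM), while the share of Atp5g3 in it was 59.4% ± 0.571 in Tyr-L and 51.3% ± 0.763 in Tyr-H. Atp5g3 remained the most abundant of the 3 in every library.

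Promoters were read for sequence features that the name rule did not use. RefSeq (GRCm38.p6) gave windows from 250 bases before to 50 after the start for 63 of the 80 nuclear subunits. They were searched on both strands for motifs of factors known to act on respiratory genes, namely the NRF1 core GCGCATGC, the ETS motif CCGGAAG and the YY1 motif AAGATGGC. The NRF1 core, which overlaps its own reverse complement, was in 15.9% of these 63 genes and in 3.05% of all 27025 genes with a window, the ETS motif in 25.4% and 9.93%, and the YY1 motif in 14.3% and 3.19%. Of the 32 genes with a window that rose, 6 held the NRF1 core, 5 the ETS motif and 3 the YY1 motif. Among the 7 that fell these numbers were 0, 3 and 2, and among the 24 that did not pass, 4, 8 and 4. A match is a description of the letters and no evidence of binding. The 27025 genes were taken whether or not they were expressed here, and a set of genes of like expression was not compared. As examples few enough to print, and chosen after their values were seen, the windows of the genes of complexes II and III that passed are given with the motif letters in capitals. Of these 8 genes 5 had a window, and Cyc1, Uqcrc2 and Uqcrq, which rose, had none. The windows are Sdhb at chr4:140961021-140961320 (plus strand), Uqcrc1 at chr9:108936398-108936697 (plus strand) and Uqcr10 at chr11:4704295-4704594 (minus strand), which rose, and Sdhd at chr9:50603800-50604099 (minus strand) and Uqcrh at chr4:116075021-116075320 (minus strand), which fell.
Sdhb: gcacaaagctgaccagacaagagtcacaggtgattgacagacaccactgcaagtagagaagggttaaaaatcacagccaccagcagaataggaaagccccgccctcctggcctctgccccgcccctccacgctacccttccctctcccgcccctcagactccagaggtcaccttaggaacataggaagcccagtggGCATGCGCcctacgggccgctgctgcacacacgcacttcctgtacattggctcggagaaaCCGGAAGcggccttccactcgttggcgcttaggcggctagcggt
Uqcrc1: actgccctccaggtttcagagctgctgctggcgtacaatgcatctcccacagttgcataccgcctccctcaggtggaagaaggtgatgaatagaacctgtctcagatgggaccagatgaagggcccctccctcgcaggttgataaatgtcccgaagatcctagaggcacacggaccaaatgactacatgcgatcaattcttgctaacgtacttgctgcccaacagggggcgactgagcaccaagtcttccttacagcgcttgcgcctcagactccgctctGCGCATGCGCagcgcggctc
Uqcr10: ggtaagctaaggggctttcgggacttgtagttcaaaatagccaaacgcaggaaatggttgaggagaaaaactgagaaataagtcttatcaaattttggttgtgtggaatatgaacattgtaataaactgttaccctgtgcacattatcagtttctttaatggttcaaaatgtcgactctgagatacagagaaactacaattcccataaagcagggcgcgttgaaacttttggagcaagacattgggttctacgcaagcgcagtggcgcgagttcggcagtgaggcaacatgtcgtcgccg
Sdhd: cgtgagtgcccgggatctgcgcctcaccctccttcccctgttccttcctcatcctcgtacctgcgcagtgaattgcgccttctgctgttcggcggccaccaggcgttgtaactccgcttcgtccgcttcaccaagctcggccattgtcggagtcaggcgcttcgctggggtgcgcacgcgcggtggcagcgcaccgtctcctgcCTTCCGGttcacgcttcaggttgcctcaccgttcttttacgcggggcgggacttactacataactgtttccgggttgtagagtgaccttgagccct
Uqcrh: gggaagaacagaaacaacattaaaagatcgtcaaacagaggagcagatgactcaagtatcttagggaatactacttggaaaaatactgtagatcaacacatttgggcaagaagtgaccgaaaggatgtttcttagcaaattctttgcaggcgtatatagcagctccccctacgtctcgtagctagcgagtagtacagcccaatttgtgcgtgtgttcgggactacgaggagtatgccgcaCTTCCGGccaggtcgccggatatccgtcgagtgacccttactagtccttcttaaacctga

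Sdhb holds both an NRF1 core and an ETS match, Uqcrc1 the NRF1 core alone, Uqcr10 none of the 3 motifs, and Sdhd and Uqcrh the ETS motif alone.

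Factors that assemble the complexes, and the mobile electron carriers, were read from lists chosen by function. Of the 51 assembly factors tested 12 rose and 13 fell, where 17.9% of all tested genes were higher and 39.9% lower, and their median log2 fold change was -0.01 beside -0.15 over all tested genes. The factors were not tested against the subunits. By complex, 4 rose and 6 fell of 15 for complex I, 1 and 1 of 4 for complex II, 1 and 1 of 6 for complex III, 5 and 4 of 22 for complex IV, and 1 and 1 of 4 for complex V. In complex I, Ndufaf6, needed for an early assembly step, rose from 10.5 ± 0.818 to 15.2 ± 0.168 FPKM (0.52, SE 0.06, adjusted p = 8.88e-05). Tmem126b, part of the membrane-arm assembly complex, was 13.6, 13.4 and 13.4 FPKM in Tyr-L and 8.08, 8.25 and 8.21 in Tyr-H, with no overlap, and fell by 0.71 on the log2 scale (SE 0.05, adjusted p = 3.56e-06). Ndufaf1, Acad9 and Ecsit of the same assembly complex did not share 1 direction, at -0.39, -0.40 and 0.35, each past the test.

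The largest drop among the abundant assembly factors was that of Cox20, a chaperone of the mt-Co2 protein. It was 29.0, 31.7 and 27.3 FPKM in Tyr-L and 14.8, 12.7 and 13.4 in Tyr-H, a change of -1.10 (SE 0.07, adjusted p = 2.57e-06), while mt-Co2 itself rose. Every Tyr-H library lay under every Tyr-L library. Pet117, another complex IV factor, was 1.06 and 0.548 FPKM in Tyr-L 1 and Tyr-L 3 and listed at 0 in Tyr-L 2 and in all of Tyr-H. It reached the mean of 0.1 FPKM needed for testing only through Tyr-L. Its call (adjusted p = 0.0422) was lost without Tyr-L 1, without Tyr-L 3 and without any of the Tyr-H libraries, with adjusted p of 0.0809 to 0.156.

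Of the 14 genes of cytochrome c and ubiquinone synthesis, 9 rose and 1 fell, where 17.9% of all tested genes were higher and 39.9% lower. Their median log2 fold change was 0.19 beside -0.15 over all tested genes. Coq8a, an atypical kinase of the ubiquinone pathway, was 1.97, 1.68 and 1.85 FPKM in Tyr-L and 4.15, 4.52 and 5.94 in Tyr-H, a log2 fold change of 1.35 (SE 0.14, adjusted p = 3.69e-05) with no overlap. Cycs, cytochrome c, rose by 0.14 (SE 0.03, adjusted p = 0.00426). Pdss1, a subunit of the enzyme that makes the side chain of ubiquinone, was the gene that fell (-0.52, SE 0.06).

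Transcript length moved with these results. The longest annotated transcripts of the nuclear subunits had a median of 1087.5 nt, beside 3061.5 nt for all tested genes. Among all genes that averaged 1 FPKM or more, the median log2 deviation of Tyr-H 3 from the mean of the 6 libraries was 0.24 for the 181 genes with transcripts of at most 600 nt and -0.14 for the 4159 genes over 4000 nt. Of the 90 subunits at this level, 78 were highest within Tyr-H in Tyr-H 3, as were 32.0% of all 11026 genes, and 55 were lowest within Tyr-L in Tyr-L 3, as were 32.6% of all genes. Without Tyr-H 3 the median of the mitochondrial subunits was 0.33 with 10 increases, and that of the nuclear subunits was 0.12 with 40 increases and 9 decreases.

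**Figure D4:**
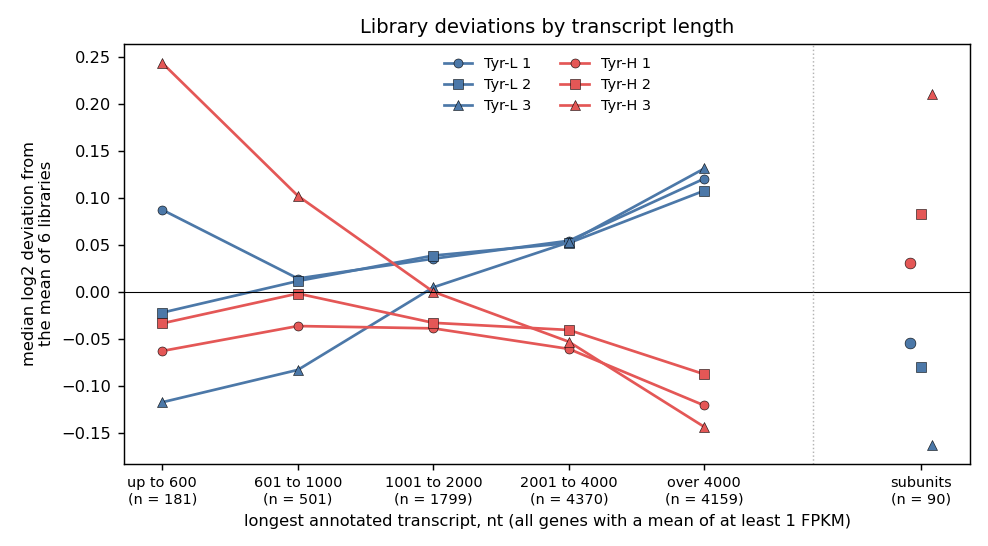
Median log2 deviation of each library from the mean of the 6 libraries, for all genes averaging 1 FPKM or more in 5 classes of longest annotated transcript (left) and for the 90 subunits at that level (right). In Tyr-H 3 short transcripts lie high (0.24 up to 600 nt) and long ones low (-0.14 over 4000 nt), and the subunits lie highest in that library (0.21).

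The median fold changes were also read within classes of transcript length, as a description with no test. Among genes with transcripts of 601 to 1000 nt, the 29 nuclear subunits had a median log2 fold change of 0.17 and all 920 tested genes -0.07. Between 1001 and 2000 nt the values were 0.21 for 26 subunits and -0.10 for all 2605 genes, and between 2001 and 4000 nt 0.15 for 13 and -0.13 for 5502. Under the correction for transcript length and GC content, 60 nuclear subunits rose and 2 fell with a median of 0.26. Of all 14336 tested genes 4149 were higher and 3660 lower there, with a median of 0.01. The median of the mitochondrial subunits was 0.72. Under that correction Atp5f1 (0.07), Ndufc1 (0.00), Ndufb3 (-0.04), Ndufs1 (-0.08), Atp5g3 (-0.07) and Sdhd (-0.02) did not pass. Cox7b passed as higher (0.13), while Uqcrh remained lower, as did Cox20 (-0.83) and Tmem126b (-0.45). Atp5j also remained lower (-0.09, adjusted p = 0.05), a call that was lost with the replicate block added (0.0913). The part of transcript length in the differences of single subunits was not tested beyond this. The correction used the longest annotated transcript of each gene, which need not be the one expressed. It was 4715 nt for Atp5g1, 753 nt for Atp5g2 and 862 nt for Atp5g3.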

How the data were processed

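RNA of 3 Tyr-L and 3 Tyr-H libraries had been prepared with the VAHTS mRNA-seq v2 kit. The authors deposited 1 table of FPKM per library. The submitters' processing notes name Trimmomatic, HISAT2 and HISAT and the build GRCm38.p6, while the quantifier, its annotation, its treatment of reads with several matches and its use of strand are not given in the sources used here. An unlisted gene was set to 0. The tables hold no read counts, and their low values were not whole multiples of a common step (27.5% to 30.7% lay within 0.1 of a whole number at best, against 20% by even spread), so depth is unknown and no floor or count test was used. FPKM is a relative measure, so a rise of abundant genes lowers the others.

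Groups came from the labels. The members and lists were chosen with earlier results of these data known. Expression was compared with limma 3.58.1 in R 4.3.3 (lmFit, eBayes with a variance trend, two-sided) on log2(FPKM + 0.1) for the 14336 genes that averaged 0.1 FPKM or more, with Benjamini-Hochberg adjustment over all of them. A gene passed if its adjusted p was 0.05 or less, and a fold change of at least 2 (log2 of 1) was a second rule. Fold changes on this scale understate those of low genes. Each gene's 3 and 3 libraries were also compared by a two-sided exact permutation test. The fit was tested on simulated data. Coordinates count from 1 and, with transcript lengths and overlaps, came from GENCODE M21 (GRCm38). Copies were sought among annotated transcripts with blastn 2.17.0 (at least 95% identity over 50% of a transcript), and the copies of mt-Co1 were placed without gaps.

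Named were all mitochondrial subunits, every subunit at least 2-fold different, the most abundant nuclear subunit of each complex, the 2 largest increases and 2 largest decreases in each complex and among assembly factors and carriers (mean of at least 1 FPKM, passed, groups apart), tissue-restricted isoforms and markers. Other genes, such as Ndufv1, Ndufb3, Atp5j, Atp5g2 and Cox6a1, were named after their values were seen. Alternatives were pseudocounts of 0.01 and 1, no minimum and a minimum mean of 1 FPKM, equal totals with and without the mitochondrial genome, median ratio scaling, quantile normalization, no variance trend, the replicate number as a block, and each library left out. A correction for transcript length and GC content (loess), the sums with the chromosome 1 copies and the sums without mt-Co1 were chosen after seeing the data. The values of 1 member are not reported here by name. Python 3.11.15, numpy 2.4.6, pandas 2.3.3 and matplotlib 3.10.9 were used.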

Additional observations from a re-analysis of the deposited data

How the results depend on the processing

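The 11 mitochondrial increases became 4 with 2 decreases under quantile normalization. The median log2 fold change of the mitochondrial subunits was 0.34 with equal totals, 0.59 with median ratio scaling, 0.086 with quantile normalization, 0.72 with the length and GC correction, with or without the block, and 0.33 to 0.495 with each library left out. The 9 nuclear decreases became 3 with median ratio scaling, 4 without a variance trend, 2 with the length and GC correction, 1 with that correction and the replicate block, and 5 to 9 with each library left out, and the nuclear median was 0.33 with median ratio scaling. The subunits at least 2-fold higher were 1 with a pseudocount of 1 FPKM, with a minimum mean of 1 FPKM and with quantile normalization. The log2 difference in the ratio of mitochondrial to nuclear sums was 0.24 with medians in place of sums, 0.25 without mt-Co1 and 0.44 with the copies on chromosome 1. Directions turned for Atp5f1 (0.071), Cox7b (0.13) and Ndufc1 (0.0022) under the length and GC correction, with or without the block, for Sdhd (0.035) with median ratio scaling, and for mt-Cytb (-0.20), mt-Nd1 (-0.14), mt-Nd2 (-0.032) and mt-Nd4 (-0.032) with quantile normalization, which also put Ndufa4, not past the test, at -0.043. Atp5j, named after its values were seen, turned to 0.0061 with median ratio scaling. The quantile value of mt-Co1 is set by its rank at the top of every library, and the cause of the other changes was not tested. Of 38 named genes with a fit, 17 kept direction and side of the threshold under every alternative run.

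The groups share replicate numbers, but the deviations of same-numbered libraries correlated at 0.0223, 0.0132 and -0.0834, so the numbers were not taken as pairs. With the replicate block 11 mitochondrial subunits were higher and none lower, and 40 nuclear subunits were higher and 9 lower. All 38 named genes kept their call under the block. The unknown depth, the unknown treatment of reads shared with the nuclear copies and the 3 libraries of each group limit the precision of these values.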
